A study of Canis lupus familiaris with 12 samples.

Results

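The libraries of WT, CGN-KO, and CGNL1-KO MDCKII cells each carry a replicate number (1, 2, or 3), and the mRNA levels described here were compared between these numbers rather than between the genotypes. The members are the 9 of 12 libraries whose columns end in N1, N2, or N3 in these 3 genotypes, with 3 libraries for each number, 1 from each genotype. MDCKII is a line of canine kidney epithelial cells. WT cells were compared with the CGN-KO line 1G8, which lacks cingulin, and the CGNL1-KO line 22, which lacks paracingulin, both made by CRISPR/Cas9 editing and neither treated. The 3 double-KO libraries (line 21D3, both genes edited) were left out of the fit, and 2 of them with the numbers 2 and 3 are shown for comparison. The column of 1 double-KO library has no number and was given none. The sample titles of this line list N1, N2, and N3, so this column may be number 1.

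Each KO genotype was 1 cell line, so the genotype and the line cannot be told apart. Neither the labels nor the methods say what a replicate number stands for, such as a culture, a day, or a batch of library preparation, so p-values measure the spread between these libraries, which may be technical. Each combination of genotype and number holds 1 library, so whether the difference between numbers itself varies between genotypes could not be tested within these 9 libraries.

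Cells of an epithelial line in culture change their mRNA levels with the state of the culture as well as with their genotype. Growing cells make ribosomes, polyamines, and nucleotides and express the genes of DNA replication and mitosis. Cells that are short of nutrients or growth factors, or that have stopped dividing, express FOXO target genes and genes of growth arrest. As a confluent kidney epithelium polarizes it expresses transporters and claudins. Immediate early genes such as FOS respond within minutes to serum, stress, and handling.

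Levels are deposited CPM values (reads scaled to library size), and differences are those of log2(CPM + 1), a scale that shrinks the differences of scarce genes. The values of a gene are given for WT, CGN-KO, and CGNL1-KO cells, in this order. Of 13672 genes listed, 12650 had more than 1 CPM in at least 3 libraries and were tested with limma, with genotype as a block, at an adjusted p below 0.05 (Benjamini-Hochberg). The 9 libraries held between 16837532 and 30086076 recovered reads, and replicate 1 of CGN-KO was the deepest. All 12 kidney epithelial markers were listed, among them EPCAM, CDH1, and PAX8, and their summed level was 7717 to 8453 CPM. Of 10 fibroblast, 8 leukocyte, and 6 endothelial markers, 2 of each were listed, with summed levels of 97.7 to 174, 8.17 to 12.3, and 1.39 to 2.98 CPM.

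The replicate number was accompanied by small differences in many genes, most of them between number 2 and number 1. Of 36 ribosome biogenesis genes, 30 were higher in number 2 than in number 1, as were 13 of 25 S phase genes, and in number 3 these counts were 22 and 2. Of all genes, 9% were higher and 9.75% lower in number 2 than in number 1, and 3.17% and 3.08% in number 3. SRM and ODC1, which make polyamines, and SFN and F3 were higher in both numbers. Of 18 FOXO targets, 13 were lower in number 2 than in number 1 and 8 in number 3, with 8 and 6 of 21 immediate early genes and 11 and 2 of 22 interferon-response genes. Of 12 genes of epithelial transport, 5 were lower in number 2 and 1 in number 3. The ribosome biogenesis and FOXO lists were added after values were seen.

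By the F test across the 3 numbers, 1674 of 12650 genes varied with replicate number (13.2%). In libraries of number 2 against number 1, 2372 genes were called (18.8%), of which 1138 were higher (9%) and 1234 were lower (9.75%). In number 3 against number 1, 791 genes were called (6.25%), of which 401 were higher (3.17%) and 390 were lower (3.08%). Both comparisons share the number 1 libraries. Between numbers 3 and 2 limma called 0 genes, with 867 genes (6.85%) at an unadjusted p below 0.05; edgeR also called 0 (881 unadjusted), as did DESeq2 (420 unadjusted, with 11036 adjusted p-values not given).

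**Figure D1:**
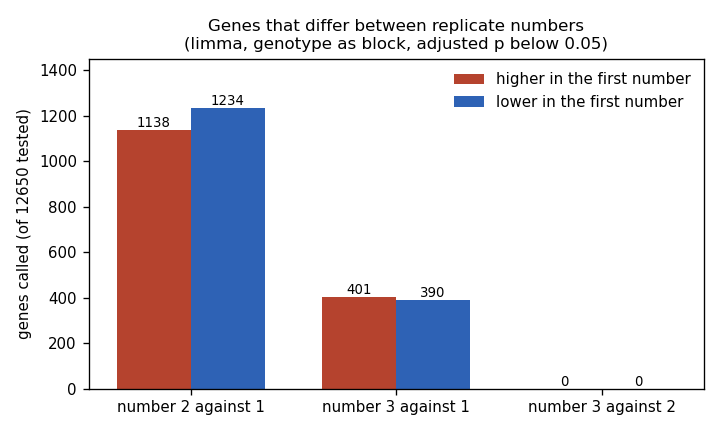
Number of genes called between replicate numbers (y axis) for the 3 pairs of numbers (x axis), as bars for genes higher (red) and lower (blue) in the first number of the pair, with limma and genotype as a block. Number 2 against number 1 gave 1138 higher and 1234 lower genes, number 3 against number 1 gave 401 and 390, and number 3 against number 2 gave 0 and 0.

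Most of these differences were small. The median absolute log2 difference of the genes called was 0.27 in number 2 and 0.27 in number 3 against number 1, and 10 genes (0.0791%) were called with a difference of at least 2-fold, all lower in number 2. Over all genes, the SD of the log2 difference was 0.19 for number 2 minus number 1, 0.15 for number 3 minus number 1, and 0.10 for number 3 minus number 2. For 86.3% of the genes called by the F test (1444 genes) the number 3 mean lay between the means of numbers 1 and 2, as for 54.4% of all genes. Genes are called mostly for a wide gap between numbers 1 and 2, so this order was favoured among them by the selection. In 550 genes (4.35%) the 3 libraries of number 1 were all above the other 6, and in 652 genes (5.15%) all below. For number 2 these counts were 203 (1.6%) and 189 (1.49%), and for number 3 they were 38 (0.3%) and 53 (0.419%).

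The SD over all genes of number 2 minus number 1 was 0.19 in WT, 0.22 in CGN-KO, and 0.27 in CGNL1-KO. The SD of number 3 minus number 1 was 0.20, 0.20, and 0.21 in the same order. The F test called 2676 genes without the WT libraries, 298 without CGN-KO, and 365 without CGNL1-KO. Leaving out 1 library at a time gave from 634 genes (without CGN-KO replicate 1) to 2521 genes (without WT replicate 1), and without a mean trend in the variance prior the F test called 364 genes.

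The spread of each gene over the 9 libraries was split into the parts that go with genotype, with number, and with neither. The median share of the sum of squares was 38.6% for genotype, 24.3% for replicate number, and 23.8% for the remainder. The remainder has 4 degrees of freedom, more than genotype or number, so its share cannot be set directly against theirs. Spread between libraries alone also gives genotype and number a share. That share was not taken off, so the median of 24.3% is not an excess that goes with number. For 5089 genes (40.2%) the share of number was larger than that of genotype, and among the genes called by the F test for number these were 1249 (74.6%). The F test picks genes for a large part with number, so the higher percentage among them was favoured by this selection. Genotype gave 1845 genes by its own F test (14.6%) and 3628 genes (28.7%) when the number was in the fit. In that joint fit 969 genes varied with number only, 705 with both, 2923 with genotype only, and 8053 with neither. The genes varying with both were 42.1% of those varying with number.

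**Figure D2:**
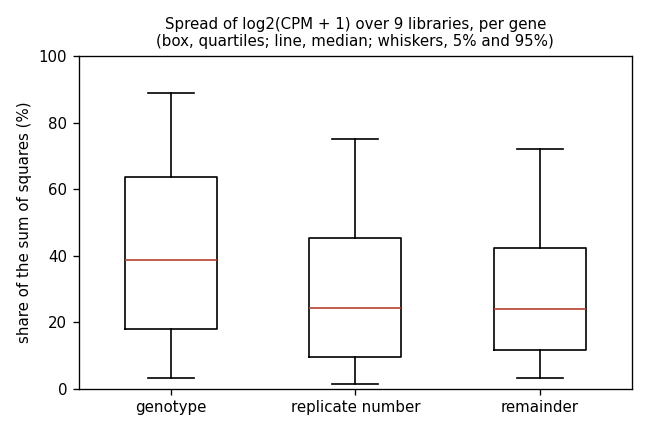
Share of each gene's sum of squares of log2(CPM + 1) over 9 libraries (y axis, percent) that goes with genotype, with replicate number, and with neither (x axis), over 12650 genes; boxes are quartiles, red lines medians, and whiskers the 5% and 95% points. The medians are 38.6% for genotype, 24.3% for replicate number, and 23.8% for the remainder, which has more degrees of freedom than the others.

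Among the genes that varied with number more than with genotype and in the same direction in all 3 genotypes, 656 were higher and 540 lower in number 2 against number 1. SFN encodes 14-3-3 sigma, an epithelial adaptor protein that holds the cell cycle. Its level was 155, 137, and 144 CPM in number 1, 201, 227, and 255 CPM in number 2, and 206, 208, and 208 CPM in number 3. The number 1 libraries were the 3 lowest, and the log2 difference from number 1 was 0.64 ± 0.064 for number 2 and 0.51 ± 0.064 for number 3 (SE, n = 3 libraries a number; limma adjusted p = 3.34e-06 and 0.000184). Replicate number held 90.4% of its sum of squares and genotype 1.86%.

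F3, the tissue factor that starts blood coagulation, was measured at 262, 209.6, and 274 CPM in number 1, 384, 362, and 409.7 CPM in number 2, and 343, 358, and 379 CPM in number 3. Again number 1 lay below the other 6 libraries in each genotype, by 0.64 ± 0.059 in number 2 and 0.54 ± 0.059 in number 3. KRT80, a type II keratin, had 97.8, 98.7, and 135 CPM in number 1, 157, 171, and 191 CPM in number 2, and 144, 139, and 171 CPM in number 3, and all 3 values of number 1 were below the other 6 (log2 difference 0.66 ± 0.055 for number 2, limma adjusted p = 9.67e-07). CD3EAP, a subunit of RNA polymerase I, which transcribes ribosomal RNA, was at 35.4, 26.01, and 25.1 CPM in number 1 and at 44.4, 39.1, and 51.05 CPM in number 2 (0.63 ± 0.093). PRR22 completed the 5 largest differences in this direction, at a low level of 0.236, 0.857, and 0.464 CPM in number 1 and 1.49, 1.58, and 1.04 CPM in number 2. In number 3, the 5 genes most above number 1 included F3, SFN, LOC613013, and LOC449531, the latter pair with log2 differences of 0.58 and 0.51 at levels under 3 CPM. LOC613013 is listed as a pseudogene in RefSeq, so its reads may come from a related gene.

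KLHL24, a substrate adaptor of a ubiquitin ligase, was the gene with the lowest F-test p in this set. It had 36.1, 56.9, and 42.2 CPM in number 1, 21.4, 24.00, and 17.1 CPM in number 2, and 22.8, 29.9, and 23.3 CPM in number 3. The 3 number 1 libraries were the highest, by a log2 difference of -1.06 ± 0.085 for number 2 and -0.79 ± 0.085 for number 3 (limma adjusted p = 5.37e-07 and 5.87e-05). FBXO32, the ubiquitin ligase subunit atrogin-1, was at 4.12, 5.08, and 4.35 CPM in number 1, 2.59, 1.28, and 0.993 CPM in number 2, and 1.67, 2.72, and 3.21 CPM in number 3. Its number 1 values did not overlap with the others, and the differences were -1.12 ± 0.19 and -0.67 ± 0.19. NR4A1, an immediate early nuclear receptor, had the largest difference of number 3 in this direction (-0.84 ± 0.15), with 8.43, 10.9, and 8.88 CPM in number 1, 6.13, 4.20, and 2.98 CPM in number 2, and 6.74, 5.14, and 3.05 CPM in number 3. KIAA1755 differed by -1.01 ± 0.094 in number 2, from 20.1, 31.6, and 29.4 CPM to 11.7, 14.8, and 11.7 CPM, without overlap.

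The remaining genes of these sets were scarce. LOC106559420, listed as a long noncoding RNA in RefSeq, was at 3.54, 4.52, and 9.40 CPM in number 1, 1.55, 2.27, and 2.26 CPM in number 2, and 2.15, 2.48, and 3.91 CPM in number 3, and the WT value of number 1 lay below the CGNL1-KO value of number 3. LOC102154336, listed as a pseudogene, was at 4.83, 4.32, and 7.60 CPM in number 1 and at 2.71, 1.78, and 2.12 CPM in number 2. CHRNB4, a nicotinic acetylcholine receptor subunit, and KIAA1324 were lower in number 3 than in number 1 by a log2 difference of -0.70 and -0.69, and for both the number 1 libraries were the 3 highest. Of these named genes, SFN, F3, KLHL24, and KIAA1755 kept the call of number 2 against number 1 under all 21 alternatives tried.

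**Figure D3:**
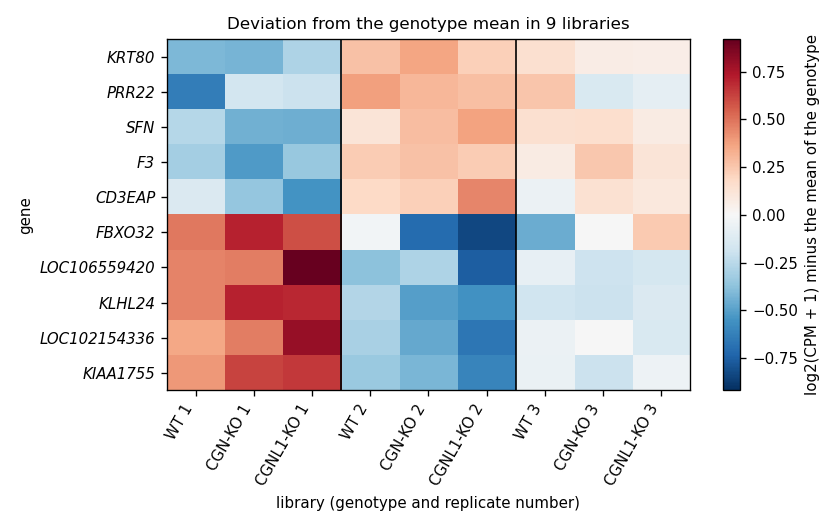
Deviation of log2(CPM + 1) from the mean of the genotype (colour) for the 10 genes that differed most between numbers 2 and 1 by the naming rule (rows) in 9 libraries (columns, ordered by number and then by genotype). The upper 5 genes are below the genotype mean (blue) in all 3 number 1 libraries, and the lower 5 genes are above it (red) in all 3.

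The 10 genes with a difference of at least 2-fold included 5 that are named here after their values were seen. SELENOP, a secreted selenium carrier, had the largest difference between numbers 2 and 1 among the genes called, with 3.36, 22.3, and 3.13 CPM in number 1, 1.60, 5.28, and 0.903 CPM in number 2, and 3.11, 7.68, and 1.34 CPM in number 3 (-1.25 ± 0.18, limma adjusted p = 0.00011). CLDN2, a claudin that forms cation pores in leaky epithelia such as the proximal tubule, was at 13.3, 43.1, and 16.8 CPM in number 1, 5.52, 15.6, and 7.63 CPM in number 2, and 9.22, 20.6, and 8.35 CPM in number 3 (-1.20 ± 0.11, adjusted p = 1.72e-06). Within each genotype the number 1 value of CLDN2 was the highest, but its level in CGN-KO number 3 exceeded that in WT and CGNL1-KO number 1, and genotype held more of its sum of squares (57.4%) than number (40.2%). CFI, complement factor I, differed by -1.03 ± 0.12, and RIPPLY1, a transcriptional corepressor, by -1.19 ± 0.12. BMF, a proapoptotic BH3-only protein, was lower in number 2 within each genotype as well, just past the 2-fold limit (limma adjusted p = 1.15e-07).

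Genes of ribosome biogenesis showed the most uniform difference of the gene lists, although this list was added after the values of single genes had been seen. Of 36 genes, 30 were higher in number 2 than in number 1 and 0 were lower, and 22 were higher in number 3. The median log2 difference was 0.33 for number 2 and 0.21 for number 3, beside a median of -0.01 and 0.00 over all genes. NOP2, an rRNA methyltransferase, was at 113, 95.8, and 93.5 CPM in number 1, 141, 148, and 159 CPM in number 2, and 122, 142, and 134 CPM in number 3 (0.56 ± 0.071, limma adjusted p = 3.5e-05). Its number 1 values were the 3 lowest. TCOF1, which assists RNA polymerase I, BYSL, an assembly factor of the small subunit, and NOB1, the nuclease that matures 18S rRNA, differed by 0.51 ± 0.064, 0.45 ± 0.058, and 0.48 ± 0.066. The list median of number 2 minus number 1 was 0.19 in WT, 0.36 in CGN-KO, and 0.42 in CGNL1-KO.

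MYC and polyamine target genes, also listed after values were seen, had 12 of 19 members higher and 1 lower in number 2. SRM, which makes spermidine, was at 46.4, 43.03, and 42.8 CPM in number 1, 65.4, 62.1, and 68.6 CPM in number 2, and 60.98, 56.5, and 57.5 CPM in number 3, and number held 95.2% of its sum of squares. Its number 1 values lay below all others, with a log2 difference of 0.56 ± 0.057 for number 2. ODC1, the first enzyme of polyamine synthesis, differed by 0.48 ± 0.060, and the pyrimidine synthesis genes CTPS1 and CAD by 0.45 ± 0.062 and 0.39 ± 0.053. The exception was TFRC, the transferrin receptor, which was lower in number 2 (-0.24 ± 0.054).

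The genes of the ribosome itself did not share this difference. Of 75 ribosomal protein genes, 0 were higher and 1 was lower in number 2 than in number 1, with a median of 0.00, and 1 was higher in number 3. RPL22L1 (0.27 in number 3) and RPL9 (-0.24 in number 2) were called, and reads of ribosomal protein genes may be shared with their many pseudogenes. RPL9 was at 1285, 1302, and 1349 CPM in number 1, 1216, 1000.0, and 1116 CPM in number 2, and 1470.0, 1090.0, and 1432 CPM in number 3. Of 33 nuclear genes of oxidative phosphorylation, 1 was called by the F test (CYC1, 0.18 in number 2), and the median was 0.02.

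The cell cycle genes that were called were higher in number 2 or 3 than in number 1. Of 25 S phase genes, 13 were higher in number 2 than in number 1 and 0 were lower (median 0.18), and of 26 G2/M genes 10 were higher and 0 were lower (median 0.11). In number 3, 2 genes of each list were higher, with medians of 0.15 and 0.07, and the G2/M median of number 3 minus number 1 was 0.01 in WT. MCM5, a subunit of the replicative helicase, was at 229, 208, and 185 CPM in number 1, 259, 258, and 248 CPM in number 2, and 256, 243, and 218 CPM in number 3 (0.30 ± 0.051). It overlapped between numbers, since WT number 1 was above CGNL1-KO number 3. UHRF1, CDC45, and TYMS, which act in DNA replication and its supply of thymidylate, differed by 0.33 ± 0.057, 0.33 ± 0.061, and 0.29 ± 0.055. The mitotic genes CDK1, UBE2C, and PLK1 differed by 0.19 ± 0.050, 0.27 ± 0.056, and 0.26 ± 0.060 in number 2, and CENPE, a mitotic kinesin, by 0.26 ± 0.059 in number 3. The count of S phase genes higher in number 2 was 20 without WT replicate 1 and 2 without the CGNL1-KO libraries, and that of G2/M genes was 14 and 0.

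Most of the FOXO target genes tested were lower in number 2 than in number 1. This list was added after values were seen. Of 18 genes tested, 13 were lower in number 2 and 0 were higher, 8 were lower in number 3, and the medians were -0.35 and -0.27. PDCD4, an inhibitor of translation initiation, was at 21.4, 27.1, and 23.3 CPM in number 1, 11.98, 15.2, and 10.8 CPM in number 2, and 14.2, 16.9, and 16.8 CPM in number 3, with the 3 libraries of number 1 highest (-0.87 ± 0.088, limma adjusted p = 3.59e-06). CCNG2, a cyclin of resting cells, differed by -0.61 ± 0.088. TP53INP1, an autophagy gene counted here and among the p53 targets, had 8.72, 11.8, and 11.1 CPM in number 1, 3.92, 6.47, and 5.01 CPM in number 2, and 5.74, 7.68, and 6.63 CPM in number 3 (-0.92 ± 0.10).

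The p53 targets moved both ways, with 3 of 14 higher and 3 lower in number 2 (median 0.00). PLK2 and TIGAR, which act in cell survival and in sugar metabolism, were higher by 0.30 ± 0.054 and 0.21 ± 0.051, and BBC3, the apoptosis gene PUMA, was lower by a log2 difference of -0.47. PLK2 varied mainly with genotype (88.4% of its sum of squares against 9.95% for number).

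**Figure D4:**
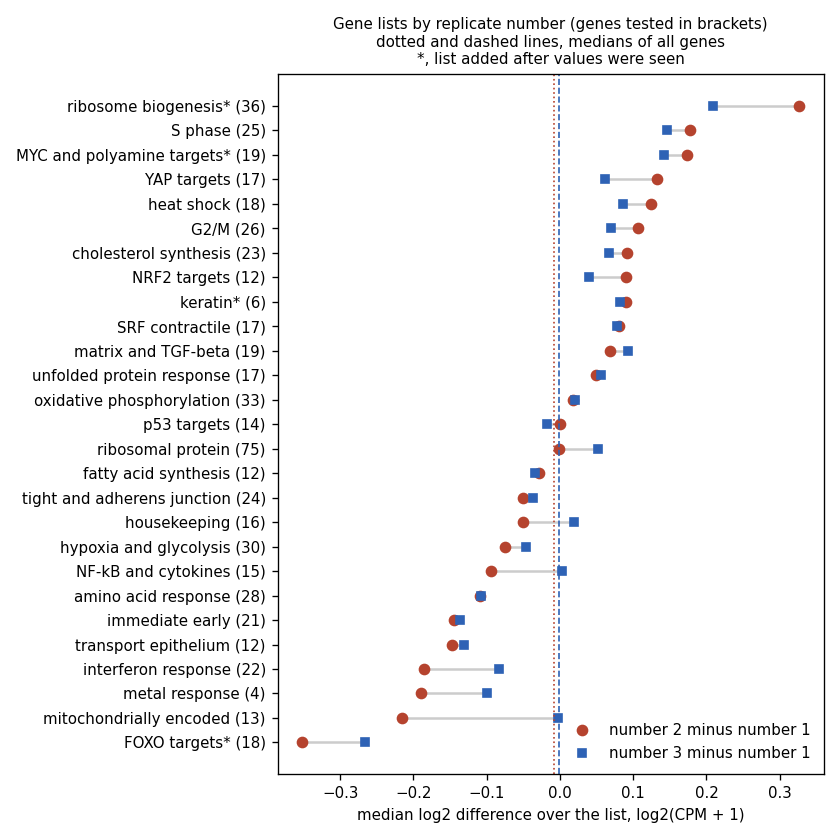
Median log2 difference over each gene list (x axis) for number 2 minus number 1 (red circles) and number 3 minus number 1 (blue squares), with lists in rows and the number of genes tested in brackets; the vertical lines mark the medians of all genes. Ribosome biogenesis lies at 0.33 and 0.21, FOXO targets at -0.35 and -0.27, and the mitochondrially encoded genes at -0.22 and 0.00.

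The immediate early genes that were called were higher in number 1, except for 1 gene. Of 21 genes, 8 were lower and 1 was higher in number 2 than in number 1, and 6 were lower and 1 was higher in number 3, with medians of -0.14 in both. FOS, a subunit of the AP-1 factor, was at 258, 365, and 279.7 CPM in number 1, 209.8, 267, and 185 CPM in number 2, and 222, 276, and 187 CPM in number 3 (-0.45 ± 0.058, limma adjusted p = 4.48e-05). Number 1 was the highest within each genotype, but the levels of CGN-KO numbers 2 and 3 exceeded that of WT number 1. DUSP1, a phosphatase of MAP kinases, was at 88.2, 134, and 113 CPM in number 1, 67.95, 89.8, and 72.7 CPM in number 2, and 73.1, 100.1, and 81.5 CPM in number 3 (-0.53 ± 0.055), and BTG2, an antiproliferative gene, differed by -0.41 ± 0.054 without overlap between number 1 and the other libraries. FOSL1, which encodes the AP-1 subunit FRA1, was the higher gene, at 47.4, 33.7, and 31.98 CPM in number 1, 57.4, 48.98, and 59.4 CPM in number 2, and 50.1, 44.8, and 51.4 CPM in number 3 (0.56 ± 0.085).

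Genes of the amino acid response, the hypoxia response, and glycolysis were mixed, with more members higher in number 1. Of 28 amino acid response genes, 10 were lower and 4 were higher in number 2 (median -0.11). NUPR1, a stress-induced chromatin protein, was at 85.6, 94.7, and 99.03 CPM in number 1, 58.8, 62.3, and 57.05 CPM in number 2, and 67.1, 63.4, and 65.7 CPM in number 3, and number held 95.2% of its sum of squares (-0.64 ± 0.060, limma adjusted p = 1.9e-06). VLDLR, a lipoprotein receptor, DDIT4, an inhibitor of mTORC1, and PSAT1, an enzyme of serine synthesis, were lower in number 2 by a log2 difference of -0.89, -0.75, and -0.31. The higher genes included SLC7A1 and SLC7A5, which import amino acids.

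Of 30 hypoxia and glycolysis genes, 9 were lower and 4 were higher in number 2 (median -0.07). BNIP3L, a receptor for the removal of mitochondria, was at 87.1, 102, and 100.3 CPM in number 1, 63.3, 60.7, and 52.3 CPM in number 2, and 70.4, 78.7, and 66.1 CPM in number 3 (-0.71 ± 0.068). Its 3 number 1 values were the highest and its 3 number 2 values the lowest. PDK1, which limits entry of pyruvate into mitochondria, and ALDOC, a glycolytic aldolase, differed by -0.43 ± 0.065 and -0.42 ± 0.078, and LOX, a collagen crosslinking enzyme, by 0.38 ± 0.058 in the other direction.

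Some chaperone genes were higher in number 2 or 3 than in number 1. Of 18 heat shock genes, 6 were higher and 0 were lower in number 2 (median 0.12), and 3 were higher in number 3 (median 0.09). The median of number 3 minus number 1 was 0.01 in WT, and without the CGNL1-KO libraries 0 heat shock genes were called in number 2. HSPA8, the constitutive cytosolic HSP70, was at 1460.0, 1444, and 1436 CPM in number 1, 1632, 1786, and 2048 CPM in number 2, and 1475, 1762, and 1858 CPM in number 3 (0.33 ± 0.071). Number 1 held the 3 lowest values of HSPA8. The cochaperones FKBP4 and CHORDC1 differed by 0.29 ± 0.055 and 0.26 ± 0.053, and HSPE1, the mitochondrial HSP10, by 0.19 ± 0.047 in number 3. Of 17 genes of the unfolded protein response, 4 were higher and 2 were lower in number 2 (median 0.05). MANF, a secreted protein of the stressed endoplasmic reticulum, was at 76.4, 82.1, and 85.6 CPM in number 1, 94.7, 108, and 113 CPM in number 2, and 97.3, 103, and 107 CPM in number 3 (0.37 ± 0.050), and the chaperones HSPA5 and HYOU1 and the isomerase CRELD2 differed by 0.30 ± 0.057, 0.31 ± 0.064, and 0.27 ± 0.075.

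Of the interferon-response genes, fewer passed the test in number 3 than in number 2. Of 22 genes, 11 were lower and 1 was higher in number 2 (median -0.19), and 2 were lower in number 3 (median -0.08). BST2, the antiviral protein tetherin, was at 97.3, 130.0, and 116 CPM in number 1, 73.4, 81.2, and 83.4 CPM in number 2, and 84.2, 91.8, and 96.95 CPM in number 3 (-0.51 ± 0.058, limma adjusted p = 1.15e-05). Number 1 held its 3 highest and number 2 its 3 lowest values. IFI44 differed by -0.41 ± 0.052, ISG15, a ubiquitin-like modifier, by -0.31 ± 0.052, and HERC6, which encodes a HERC-family protein, by -0.32 ± 0.057. By genotype, the list median of number 3 minus number 1 was -0.17 in WT, -0.16 in CGN-KO, and 0.09 in CGNL1-KO.

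Of 15 NF-kB target and cytokine genes, 2 were higher and 2 were lower in number 2 (median -0.09), and these 4 varied more with genotype. LCN2, an iron-siderophore binding protein of injured tubules, was at 5.83, 22.98, and 4.53 CPM in number 1, 3.15, 10.8, and 1.80 CPM in number 2, and 4.11, 12.1, and 2.35 CPM in number 3 (-0.91 ± 0.11), with 83.2% of its sum of squares from genotype. SOD2, the mitochondrial superoxide dismutase, differed by -0.34 ± 0.062, and CSF2, a cytokine, and ICAM1, an adhesion receptor, by 0.30 ± 0.075 and 0.23 ± 0.057.

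Targets of YAP and of SRF were higher in number 2 where they were called, with 1 exception. Of 17 YAP targets, F3 among them, 7 were higher and 0 were lower (median 0.13), and 4 were higher in number 3. ANKRD1, a nuclear repressor protein, was at 98.5, 132, and 186 CPM in number 1, 145, 197, and 209.5 CPM in number 2, and 142, 188, and 210.1 CPM in number 3 (0.43 ± 0.065). Number 1 was the lowest within each genotype, but CGNL1-KO number 1 was above WT numbers 2 and 3, and genotype held 62.2% of its sum of squares. NUAK2, a kinase of the AMPK family, and FJX1, a secreted protein, differed by 0.38 ± 0.066 and 0.38 ± 0.10. By genotype, the median of number 2 minus number 1 was 0.10 in WT, 0.20 in CGN-KO, and 0.00 in CGNL1-KO.

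Of 17 SRF target and contractile genes, 5 were higher and 1 was lower in number 2 (median 0.08). ACTB, which encodes beta-actin, was at 608, 563, and 639 CPM in number 1, 710.5, 715, and 770.2 CPM in number 2, and 638, 663, and 695 CPM in number 3 (0.28 ± 0.052), and number 2 held its 3 highest values. FLNA, an actin crosslinker, and MYH9, the heavy chain of NM2A, differed by 0.30 ± 0.058 and 0.25 ± 0.060. MYH14, the heavy chain of NM2C, was the lower gene (-0.27 ± 0.066).

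Of 19 matrix and TGF-beta target genes, 8 were higher and 2 were lower in number 2 (median 0.07). TIMP3, an inhibitor of metalloproteinases, THBS1, a matrix glycoprotein, and PLAUR, the urokinase receptor, differed by 0.43 ± 0.052, 0.40 ± 0.066, and 0.47 ± 0.099. TIMP3 was at 185, 255, and 249 CPM in number 1, 243, 380.1, and 309.7 CPM in number 2, and 244, 355, and 322 CPM in number 3.

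Genes of epithelial transport were lower in number 2 where they were called, except AKR1B1. Of 12 transport genes, 5 were lower and 1 was higher in number 2 (median -0.15), and 1 was lower in number 3. Of all genes, 9.75% were lower and 9% higher in number 2. The F test called 33.3% of the transport genes, beside 13.2% of all genes. FXYD2, a regulatory subunit of the sodium pump, was at 7.25, 10.7, and 8.19 CPM in number 1, 3.70, 4.94, and 5.28 CPM in number 2, and 5.97, 5.55, and 7.70 CPM in number 3 (-0.78 ± 0.13, limma adjusted p = 0.000327). Number 2 held its 3 lowest values. AQP3, a basolateral water channel, was at 7.96, 10.1, and 9.35 CPM in number 1, 6.57, 5.09, and 5.28 CPM in number 2, and 7.17, 6.97, and 6.47 CPM in number 3 (-0.61 ± 0.12), with the 3 number 1 libraries highest. AKR1B1, the aldose reductase that makes sorbitol, was higher in number 2 (0.27 ± 0.059).

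Among the 12 kidney epithelial markers, 2 were lower in number 2, CDH16 among them, and the other 10 were not called. The F test called 2 of the 12 (16.7%), near the 13.2% of all genes. CDH16, the kidney-specific cadherin, was scarce at 1.94, 5.14, and 3.48 CPM in number 1, 0.828, 2.32, and 1.49 CPM in number 2, and 1.58, 2.83, and 1.60 CPM in number 3 (-0.81 ± 0.14). Within each genotype number 1 was its highest library. PDGFRA, the 1 fibroblast marker called, was at 5.48, 11.1, and 9.81 CPM in number 1, 2.71, 5.88, and 3.75 CPM in number 2, and 3.97, 6.73, and 4.44 CPM in number 3 (-0.94 ± 0.12), while COL1A1, COL3A1, DCN, and LUM were not among the genes listed, and FBLN1 was not called. No leukocyte or endothelial marker was called.

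The targeted genes varied with number as well, by less than with genotype. CGN was at 233, 56.5, and 213 CPM in number 1, 211, 48.3, and 202 CPM in number 2, and 199, 47.00, and 198 CPM in number 3 (-0.15 ± 0.050 for number 2 and -0.20 ± 0.050 for number 3). Genotype held 99.1% of its sum of squares and number 0.760%, and number 1 was the highest within each genotype. CGNL1 was at 12.3, 6.92, and 3.02 CPM in number 1, 9.22, 5.04, and 1.76 CPM in number 2, and 7.74, 6.02, and 2.25 CPM in number 3 (-0.44 ± 0.12 for number 2), with 91.4% from genotype. The CGN call was lost in 8 and the CGNL1 call in 11 of 21 alternatives. Among the single libraries left out, the CGN call was lost without CGN-KO replicate 1, 2, or 3 or CGNL1-KO replicate 2, and the CGNL1 call without WT replicate 1, CGN-KO replicate 1 or 2, or CGNL1-KO replicate 1 or 2. Of the 24 tight and adherens junction genes, which hold CGN, CGNL1, and CLDN2, 4 were lower and 0 were higher in number 2 (median -0.05). The F test called 3 of them (12.5%), near the 13.2% of all genes.

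**Figure D5:**
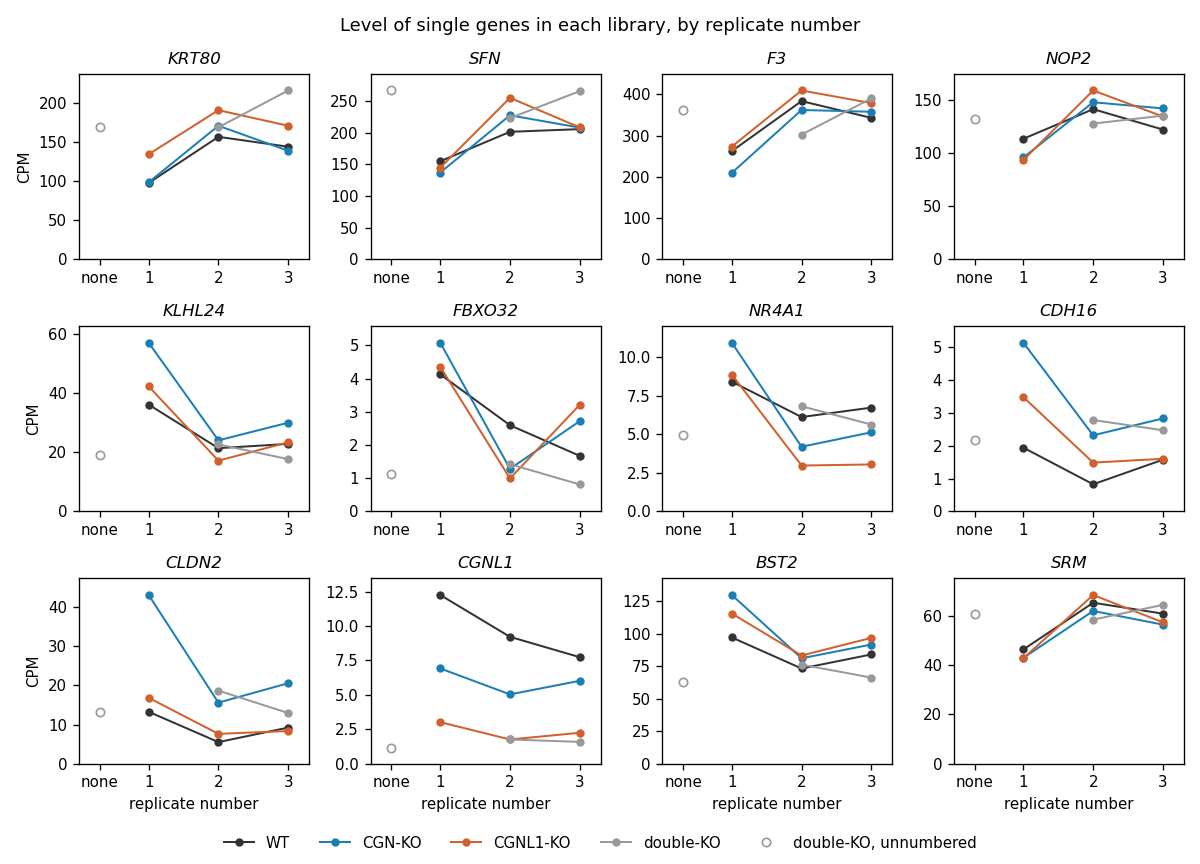
Level in CPM (y axis) of 12 genes in each library, by replicate number (x axis), with a line for each genotype; open circles are the double-KO library without a number. SFN, F3, KRT80, NOP2, and SRM are lowest and KLHL24, FBXO32, and NR4A1 highest in the 3 number 1 libraries of the 3 genotypes in the fit, whereas CLDN2, CGNL1, and CDH16 are also spread by genotype.

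Genes of cholesterol synthesis, of fatty acid synthesis, and of the NRF2 response were called in both directions in number 2. Of 23 cholesterol synthesis genes, 5 were higher and 1 was lower in number 2 (median 0.09), and CYP51A1 and IDI1, enzymes of the pathway, differed by 0.23 ± 0.055 and 0.24 ± 0.053. The F test called 2 of these 23 genes (8.7%), a smaller share than the 13.2% of all genes. Of 12 fatty acid synthesis genes, 2 were higher and 2 were lower, among them ELOVL6, a fatty acid elongase (0.18), and ACSS2, an acetyl-CoA synthetase (-0.26). The F test called 2 of the 12 (16.7%), near the share of all genes. Of 12 NRF2 targets, 6 were higher and 1 was lower (median 0.09), and the F test called 5 (41.7%). TXNRD1, a thioredoxin reductase, OSGIN1, and SRXN1, a sulfiredoxin, were higher by 0.41 ± 0.062, 0.59 ± 0.11, and 0.21 ± 0.060, and NQO1, a quinone reductase, was at 935, 1358, and 1754 CPM in number 1, 751, 989.7, and 1141 CPM in number 2, and 839, 1083, and 1322 CPM in number 3 (-0.46 ± 0.062). Within each genotype number 2 of NQO1 was the lowest.

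Of 4 metal response genes tested, 2 were lower in number 2. MT1E, a metallothionein whose reads may be shared with near-identical copies, was at 4.36, 6.96, and 6.04 CPM in number 1, 4.03, 2.86, and 2.44 CPM in number 2, and 3.73, 4.37, and 2.89 CPM in number 3 (-0.72 ± 0.15). Of 6 keratin genes, a list added after values were seen, KRT80 was the 1 gene called.

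Genes often used as internal references were not exempt. Of 16 housekeeping genes, 2 were higher and 4 were lower in number 2 (median -0.05). ACTB and YWHAZ, a 14-3-3 protein, were higher (0.28 and 0.23), and TFRC and B2M, the light chain of MHC class I, were among those lower (-0.24 and -0.21). The 5 genes with the smallest spread within genotypes, at a mean of at least 10 CPM, were RPS7, AGPAT1, SEMA4F, GNA12, and SLC5A6. AGPAT1, an enzyme of phospholipid synthesis, was at 35.3, 46.9, and 41.4 CPM in number 1, 36.3, 46.4, and 41.6 CPM in number 2, and 36.4, 47.2, and 41.95 CPM in number 3, so that its 3 genotypes did not overlap while its numbers did. GNA12, a G protein alpha subunit, was at 95.7, 92.7, and 91.2 CPM in number 1, 96.3, 95.05, and 91.8 CPM in number 2, and 96.3, 96.5, and 91.2 CPM in number 3.

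The libraries also differed in the share of reads from the 13 mitochondrially encoded genes, which was lowest in number 2 within each genotype. It was 7.15%, 6.53%, and 7.53% in number 1, 4.98% to 6.88% in number 2, and 7.79%, 5.51%, and 8.04% in number 3. Of these 13 genes, 2 were lower in number 2 (median -0.22), and the median of number 3 minus number 1 was 0.00. ND5, a subunit of complex I, was at 1967, 1651, and 1995 CPM in number 1, 1872, 1239, and 1618 CPM in number 2, and 2141, 1372, and 2058 CPM in number 3 (-0.26 ± 0.074). The share of the 10 most read genes was likewise lowest in number 2 within each genotype, between 7.27% and 8.69%, against 9.31% to 10.1% in number 1 and 7.98% to 10.4% in number 3. The part of these shares in the differences between numbers 2 and 1 was not tested.

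The counts of these lists depended on which libraries were in the fit. Over 14 alternatives (scaling by library totals, edgeR, each genotype left out, and each library left out), from 19 to 32 ribosome biogenesis genes were higher in number 2, as were 2 to 20 S phase genes and 0 to 8 heat shock genes. Likewise, 7 to 14 FOXO targets, 4 to 12 immediate early genes, 4 to 12 interferon-response genes, and 1 to 6 transport genes were lower. The list medians of number 2 minus number 1 kept their sign in these 7 lists under all 14 alternatives.

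Calls were more frequent among highly expressed genes. With the genes split by mean level into 3 equal groups, 19.0% of the upper group were called by the F test, with a median difference of 0.03 for number 2 minus number 1, and 8.35% of the lower group, with a median of -0.07. In number 2 against number 1, 17.3% of the upper group were higher and 8.58% lower. In the lower group these shares were 2.09% and 10.6%. With a split by genomic span into 3 equal groups, 14.5% of the group of short genes and 12.1% of the group of long genes were called by the F test. In number 2, 11.8% of the short genes were higher and 7.89% lower, and 5.59% and 12.15% of the long genes. The gene lists were not matched to all genes for level or span. With libraries scaled to their totals only, number 3 against number 1 gave 275 higher and 474 lower genes, in place of 401 and 390.

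Some genes had a large remainder, the spread left after the parts of genotype and number were taken out. Among genes with a mean of at least 10 CPM, the 5 with the largest remainder included LOC106558651, CDC42EP5, LOC100684767, and S100A16, and 0 of the 5 were called for number. CDC42EP5, an effector of the GTPase CDC42, was at 7.48, 10.3, and 15.03 CPM in number 1, 9.88, 8.20, and 9.03 CPM in number 2, and 13.9, 7.26, and 9.36 CPM in number 3. S100A16, a calcium-binding protein, was at 31.6, 2.21, and 0.290 CPM in number 1 and 32.1, 0.395, and 0.361 CPM in number 2, and genotype held 97.8% of its sum of squares.

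The double-KO libraries numbered 2 and 3 could be compared for the step between these numbers. Their difference had an SD of 0.15 over all genes, against 0.16, 0.15, and 0.17 in WT, CGN-KO, and CGNL1-KO cells. KLHL24 was at 22.6 and 17.7 CPM, SFN at 223 and 266 CPM, and NOP2 at 128 and 135 CPM in double-KO numbers 2 and 3. The double-KO library without a number had 19.1, 267, and 132 CPM of these genes. If that library was number 1, each of these genes differed between numbers 1 and 2 in the direction opposite to the fitted genotypes. The log2 step of KLHL24 from number 2 to number 3 was 0.09, 0.31, and 0.42 in WT, CGN-KO, and CGNL1-KO cells. In double-KO cells it had the opposite sign (-0.34). The step of SFN was 0.03, -0.13, and -0.29 in these genotypes and 0.25 in double-KO cells. A test of whether the step from number 2 to number 3 differed in double-KO cells, with 1 double-KO library for each number and the spread taken from the other genotypes, called 1 gene (0.00791%), IFI44, with 819 genes (6.47%) at an unadjusted p below 0.05. For the interferon-response list, the median of number 3 minus number 2 was -0.21 in double-KO cells and 0.09 in the 9 libraries. These medians were 0.05 and -0.10 for ribosome biogenesis and -0.13 and 0.10 for FOXO targets, also opposite in sign. For heat shock genes they were -0.03 and -0.04.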

How the data were processed

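RNASeq was performed by the authors on WT, CGN-KO, CGNL1-KO, and double-KO MDCKII cells, with stranded mRNA libraries. The authors aligned the reads with STAR (version 2.7.0f) to CanFam3.1 and counted them per gene with HTSeq (version 0.9.1), as the submitters' processing notes and the methods state. They deposited 1 table of normalized counts, a signal in CPM relative to library size times a scaling factor. The strand setting of the counting and the annotation release were not given in the sources used here, so reads of overlapping and antisense genes may not be separable. The table lists gene symbols. Coordinates and sequences are not given, because no genome of this build was used here.

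Within a library, the deposited values divided by that of a single read gave whole numbers (100% of values within a tolerance of 0.01), and whole reads were recovered in this way. Values were tested as log2(CPM + 1) with limma 3.58.1 in R 4.3.3 (lmFit and eBayes with a trend), with genotype and replicate number as terms, over 12650 of 13672 genes (above 1 CPM in 3 or more of the 12 libraries). All adjusted p-values are Benjamini-Hochberg over these genes. The main test follows the unit rather than the count model of the study. The count test edgeR 4.0.16 (quasi-likelihood) on the recovered reads called 1759 genes for replicate number, and DESeq2 1.42.0 called 1200. The step was tested on simulated data. Alternatives were another pseudocount, no filter, no variance trend, scaling by library totals, thinning to the smallest library, no genotype term, and each library or genotype left out. The addition of the double-KO libraries numbered 2 and 3 to the fit was chosen after the data were seen.

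The members and the gene lists were chosen with earlier results of these data known, and the lists of ribosome biogenesis, FOXO targets, MYC and polyamine targets, and keratins were added after values were seen. Named genes are, for each pair of numbers, the 5 largest differences in each direction among genes called by the F test and that pair, with the same sign in all 3 genotypes and more of the sum of squares with number than with genotype. They are also up to 4 called members of each list with the lowest p, CGN and CGNL1, and, at a mean of at least 10 CPM, the 5 genes with the largest remainder and the 5 with the smallest spread within genotypes. Other list members named, the double-KO values, and the genes at least 2-fold different were picked with their values known. The 16 gene names in the form of a date were left out of these rules, and some genes that the rules name are not reported here. RefSeq (UU_Cfam_GSD_1.0) gave gene types and genomic spans by symbol for 11755 genes (92.9%). No 2 libraries of a genotype differed by as little as sampling noise (chi-square per degree of freedom 2.49 to 22.6). Plots were drawn with matplotlib.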

Additional observations from a re-analysis of the deposited data

Results flagged for a closer look

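IFI44, an interferon-response gene, was picked out because its step from number 2 to number 3 differed between double-KO cells and the 3 other genotypes in a direct test of that difference. In WT, CGN-KO, and CGNL1-KO cells its level was 138, 123, and 111 CPM in number 2 and 156, 137, and 137 CPM in number 3, higher in number 3 in 3 of 3 genotypes. In double-KO cells it was 119 and 84.8 CPM, lower in number 3, and 97.2 CPM in the library without a number, between these values. The difference of the steps was -0.69 ± 0.10 (log2, SE; limma adjusted p = 0.0268), and the adjusted p ranged from 0.000997 to 0.249 over the alternatives. The call was lost without WT replicate 2, CGN-KO replicate 2, CGNL1-KO replicate 2, or CGNL1-KO replicate 3. The double-KO step rests on 1 library of each number, so the SE and p assume that this line varies like the other genotypes, whose residuals give the spread, and what the numbers mark in that line was not tested. Groups of 3 libraries were too small for a test of single outlying libraries.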

How the results depend on the processing

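The F test for replicate number called 364 genes without a variance trend and 0 without a genotype term. Number 2 against number 1 then gave 1262 and 44 genes, and number 3 against number 1 gave 0 and 0. At least a 2-fold difference left 10, 10, and 0 genes. With WT left out, the F test and number 3 against number 1 gave 2676 and 1758 genes, and number 3 against number 2 gave 6. With CGN-KO left out, the F test and the comparisons of numbers 2 and 3 with number 1 gave 298, 629, and 19 genes, and with CGNL1-KO left out 365, 584, and 144. Adding the double-KO libraries numbered 2 and 3 gave 1 gene for number 3 against number 2. Leaving out 1 library gave 634 to 2521 genes in the F test, 721 (without CGNL1-KO replicate 2) to 3292 (without WT replicate 1) for number 2 against number 1, and 205 (without CGNL1-KO replicate 1) to 1699 (without WT replicate 1) for number 3 against number 1. It gave 0 to 19 for number 3 against number 2, 1108 (without WT replicate 2) to 2334 for genotype, and 0 (without number 2 of WT, CGN-KO, or CGNL1-KO, or CGNL1-KO replicate 3) to 7 (without WT replicate 1) for the step in double-KO cells. Without CGN-KO replicate 1 or 2 or CGNL1-KO replicate 1 or 2, the F test called 634, 851, 698, and 725 genes, and number 2 against number 1 gave 1156, 1208, 1188, and 721. Without CGN-KO replicate 1 or 3 or CGNL1-KO replicate 3, number 3 against number 1 gave 266, 275, and 294. Fits without a library or genotype have fewer degrees of freedom, and their counts rose in some and fell in others. The cause of these changes was not tested. Number 3 against number 1 gave 749 genes with libraries scaled to their totals, the F test 1521 with all libraries thinned to the smallest.

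When the replicate number entered as a block, the F test for genotype called 3628 genes in place of 1845. In the 3 genotypes of the fit, deviations of same-numbered libraries from their genotype means were correlated across genes for numbers 1 and 2 but not clearly for number 3. The correlations were 0.329 to 0.632 for number 1, 0.318 to 0.475 for number 2, and -0.0822 to 0.179 for number 3. Number 3 libraries gave -0.381 to 0.32 with libraries of unlike number, the highest for CGN-KO number 3 with CGNL1-KO number 2. Double-KO number 2 gave -0.152, -0.233, and -0.235 with number 2 of WT, CGN-KO, and CGNL1-KO. With their number 1 it gave 0.185, 0.275, and 0.209. Double-KO number 3 gave 0.0859, -0.123, and -0.124 with their number 3. The double-KO library without a number gave -0.0759, -0.136, and -0.223 with their number 1. Not every same-numbered pair was above 0.1, so the numbers were not taken to pair all libraries. Of 2315 values of 111 single-gene results under the alternatives, 1847 kept their side of the threshold, 468 lost the call, and 0 changed sign. Depth limits genes of a few CPM most, where 1 CPM is about 16.9 to 30.3 reads.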
